A study of Mus musculus with 2 samples.

Results

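The blood-brain barrier transporters examined here were 10 genes chosen by name: Slc22a8, Mfsd2a, Slco1a4, Slco1c1, Slc2a1, Abcb1a, Abcg2, Slc7a5, Slc16a1 and Lrp8. They were read among 25814 genes with counts in either of 2 single-cell RNA libraries. All 10 had counts in the brain library and 9 in the lung library, where Mfsd2a had none. Both libraries came from adult Nestin-GFP mice of about 6 weeks, labelled C57BL/6. The study's methods describe the wild-type mice used for breeding as CD1 or mixed CD1/C3H. The reporter places GFP under Nestin regulatory elements, so both groups hold only Nes-GFP+ sorted cells, and endothelial cells (ECs) without the reporter were not sampled. One library was made from brain and 1 from lung, each with a droplet kit that counts the 3′ ends of transcripts, and there was no other treatment or genotype. Each library is described in the study as 1 biological replicate, and whether that was 1 animal or a pool was not given in the sources used here.

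Capillaries of the brain are sealed by tight junctions, so nutrients, hormones and lipids cross the ECs by dedicated carriers, and efflux pumps return many drugs to the blood. Slc2a1 (GLUT1) carries glucose, Slc16a1 (MCT1) lactate and ketone bodies, and Slc7a5 (LAT1) large neutral amino acids. Slco1c1 (OATP1C1) carries thyroxine, Slco1a4 (OATP1A4) and Slc22a8 (OAT3) carry organic anions and drugs, and Mfsd2a carries lysophospholipids with an omega-3 fatty acid and restrains transcytosis. Abcb1a (P-glycoprotein) and Abcg2 (BCRP) are ATP-driven efflux pumps. Lrp8 (ApoER2) is a lipoprotein receptor that also receives reelin in neurons, so it is a receptor and not a carrier in the strict sense.

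ECs were taken as cells with at least 1 unique molecular identifier (UMI, a tag that marks 1 captured transcript) of both Cldn5, a claudin of endothelial tight junctions, and Pecam1, an endothelial adhesion molecule. This gate held 271 of 4151 brain cells (6.53%) with 1148667 UMIs and 575 of 5608 lung cells (10.25%) with 3398172 UMIs. The median depth was 4016 UMIs per cell in brain and 5604 in lung. All 10 genes of the endothelial marker list, among them Flt1, Cdh5 and Kdr, had UMIs in both gates. In brain 266 gated cells and in lung 562 lay in clusters named endothelial-like. Those clusters also held 63 brain and 52 lung cells that the gate missed. The libraries shared 15 barcodes. None of these was in the brain gate, and the 4 in the lung gate carried 1 UMI of the transporters in all.

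Levels are given as counts-per-million (CPM), the summed UMIs of a gene divided by all UMIs of the class. One UMI was worth 0.871 CPM in the brain gate and 0.294 CPM in the lung gate. With 1 library per tissue there was no test and no replicate check, and each difference is one between these 2 libraries. Brackets hold exact 95% intervals, which cover counting error only. Where a class had 0 UMIs, the fold is a lower bound that takes 3 UMIs in the whole class as the floor. CPM is a share of each cell's RNA: 10 endothelial genes outside the gate (Ly6c1, Flt1, Egfl7 and others) summed to 12425 CPM in the brain gate and 6366 CPM in the lung gate.

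All 10 transporters were higher in brain ECs. Each passed a CPM ratio of 4, which 659 of 11908 genes with at least 10 UMIs over both gates passed in that direction (5.53%), and no transporter passed it toward lung, where 799 genes did (6.71%). The 10 were chosen as genes of this barrier with earlier results of these data known, so this is a description and not a test. The median log2 ratio of the 10, with 0 UMIs set to the floor, was 9.12, beside -0.01 over all genes tested. Its middle values, those of Mfsd2a and Slc22a8, are lower bounds. When all genes were ranked by ratio, the 10 lay between places 1 and 310. For 8 genes the lung gate held between 0 and 27 UMIs, and for the efflux pumps Abcb1a and Abcg2 it held 327 and 229. The gates differed in arterial and venous genes (lists below): 59 of 271 brain cells and 543 of 575 lung cells had more arterial UMIs. The ratios were not matched for this.

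**Figure D1:**
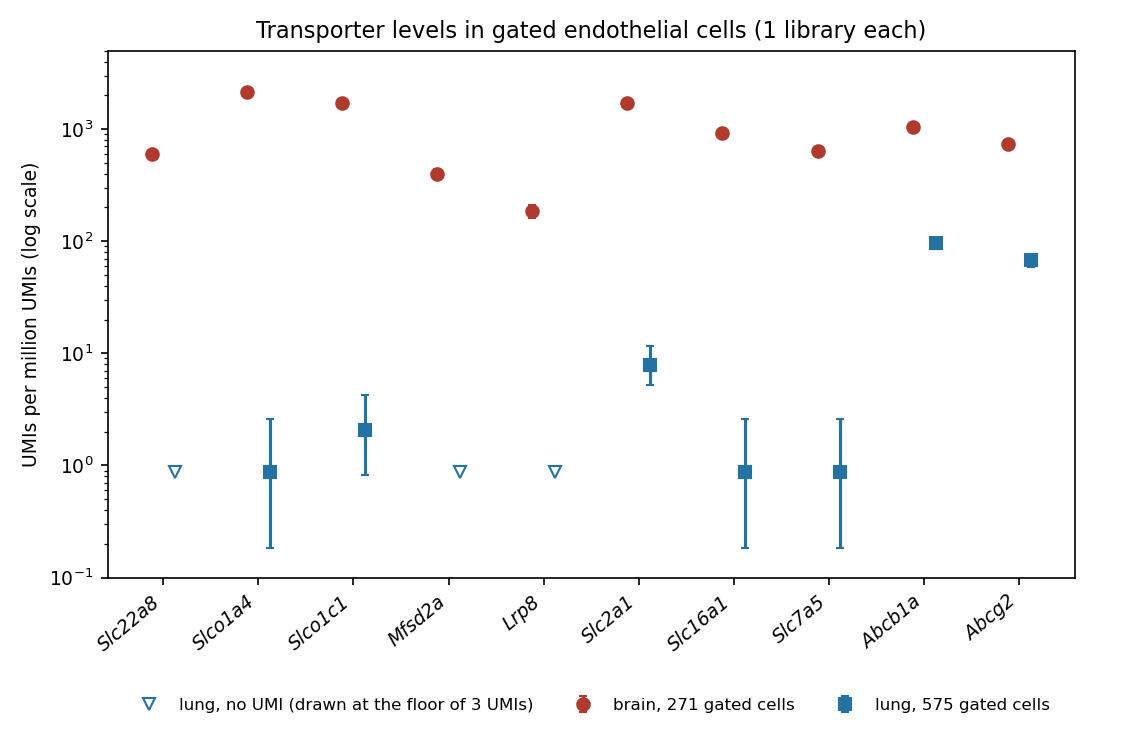
Level of each transporter in the gated cells, in CPM on a log axis, with circles for brain (271 cells), squares for lung (575 cells) and bars for exact 95% counting intervals. Open triangles mark genes with no UMI in the lung gate, drawn at the floor of 3 UMIs (0.883 CPM). The brain values lie between 185 and 2161 CPM, and in lung only Abcb1a and Abcg2 exceed 10 CPM.

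Among the carriers of drugs and anions, Slco1a4 had 2482 UMIs in the brain gate (2161 CPM, 2077 to 2247) and 3 in the lung gate (0.883 CPM, 0.182 to 2.58). The ratio was 2448 (837 to 11876). It was found in 260 of 271 brain ECs (95.9%) and in 2 of 575 lung ECs (0.348%), and these were its only UMIs among the kept lung cells. Slco1c1 had 1956 UMIs in brain (1703 CPM, 1628 to 1780) and 7 in lung (2.06 CPM, 0.828 to 4.24), a ratio of 827 (400.5 to 2059). It too was found in 95.9% of brain ECs, against 1.22% of lung ECs. Slc22a8 had 696 UMIs in brain (606 CPM, 562 to 653) and none in the lung gate. That made it at least 686-fold higher in brain. It was found in 80.8% of brain ECs and 0 of 575 lung ECs. At this depth that allows up to 0.522% of lung ECs with a UMI, taking 3 cells as the limit, and says nothing of expression below detection.

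Both lipid uptake genes had no UMI in the lung gate. Mfsd2a had 458 UMIs in brain (399 CPM, 363 to 437) and was at least 452-fold higher. UMIs were found in 180 of 271 brain ECs (66.4%), with at most 9 UMIs in a cell. Lrp8 had 213 UMIs in brain (185 CPM, 161 to 212) and was at least 210-fold higher. Of the brain ECs, 132 had a UMI of it (48.7%). The 0 of 575 lung ECs again allow up to 0.522% of cells with a UMI for each gene.

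The carriers of fuel and amino acids were close to undetected in lung ECs. Slc2a1, the glucose carrier, had 1959 UMIs in brain (1705 CPM, 1631 to 1783) and 27 in lung (7.95 CPM, 5.24 to 11.6), a ratio of 215 (147 to 327). It was found in 95.9% of brain ECs and 4.52% of lung ECs. Slc16a1 had 1069 UMIs in brain (931 CPM, 876 to 988) and 3 in lung (0.883 CPM), a ratio of 1054 (360 to 5120). Its UMIs were in 77.5% of brain ECs and 0.522% of lung ECs. Slc7a5 had 727 UMIs in brain (633 CPM, 588 to 681) and 3 in lung (0.883 CPM), a ratio of 717 (244 to 3484), and was found in 77.1% and 0.522% of the cells. Of the 3 ratios that rest on 3 lung UMIs, those of Slco1a4 and Slc7a5 moved by over 1.5 times when CPM was averaged over cells, to 1260 and 430, and that of Slc16a1 ran from 720 to 1573 over the alternatives.

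The efflux pumps were the transporters that lung ECs shared. Abcb1a had 1194 UMIs in brain (1039 CPM, 981 to 1100) and 327 in lung (96.2 CPM, 86.1 to 107), a ratio of 10.8 (9.55 to 12.2). It was found in 93.4% of brain ECs and 40.0% of lung ECs. Abcg2 had 839 UMIs in brain (730 CPM, 682 to 782) and 229 in lung (67.4 CPM, 58.9 to 76.7). Its ratio was also 10.8 (9.35 to 12.6), and it was found in 88.6% and 30.4% of the cells. The intervals of these 2 ratios overlapped, and each lay below the interval of every other transporter with lung UMIs. Abcb1b, the near copy of Abcb1a in mice, had 1 UMI in the brain gate and 5 in the lung gate, and the near copies of Slco1a4 had 2 UMIs at most. Reads that match both copies were not at hand, so the split between copies was not tested.

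Cell depth differs between the gates and raises the share of cells with a UMI, so the shares were also computed for 1000 UMIs drawn from each cell, without the 2 shallower brain cells. The share then expected in brain ECs ran from 18.0% for Lrp8 to 82.8% for Slco1a4. In lung ECs it was 9.44% for Abcb1a, 6.70% for Abcg2, 0.873% for Slc2a1 and under that for the others. For comparison, neuroblast-like cells of the brain library (median 4119 UMIs) served as a class outside the endothelium. Between 0.514% (Slc22a8) and 3.45% (Abcg2) of them had a UMI, with the exception of Lrp8 at 60.9%. Lrp8 apart, their UMIs were 0.789 (Slco1a4) to 8.67 (Abcg2) times what endothelial RNA would bring, by the quotient defined below. These shares are thus no measure of free RNA alone, and its part was not tested. In the lung library, matrix fibroblast-like cells (median 9301 UMIs) had a UMI of Slc2a1 in 2.07% of cells and of Abcb1a in 0 of 581, which allows up to 0.516%. They had one of Abcg2 in 19.3%, and lymphocyte-like cells (median 1985 UMIs) in 2.48%, so Abcg2 did not have a like low share in all lung classes.

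Genome positions are those of GENCODE M21 on GRCm38, the assembly behind the mm10 build of the files. Slco1a4 (chr6:141805440-141856199, minus strand) and Slco1c1 (chr6:141524368-141570177, plus strand) are near neighbours. On chromosome 4 lie Lrp8 (chr4:107802261-107876840, plus), Slc2a1 (chr4:119108711-119137983, plus) and Mfsd2a (chr4:122946850-122961188, minus). Slc22a8 is at chr19:8591254-8611835 (plus), Slc16a1 at chr3:104638668-104658462 (plus), Slc7a5 at chr8:121881150-121907694 (minus), Abcb1a at chr5:8660077-8748575 (plus) and Abcg2 at chr6:58584523-58695676 (plus). Genes annotated over the same spans had at most 5 UMIs.

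The 3 genes with no UMI in the lung gate are shown by the 150 bases before their RefSeq start (GRCm38.p6), read 5′ to 3′ on the gene's strand. For Lrp8 the most upstream of 3 RefSeq starts is shown. Capitals mark a match, on either strand, to one of 5 motifs. The core of TCF/LEF, the factors of Wnt signalling, was searched for as CTTTGA and the core of SOX factors as ACAAAG. The letters for ETS factors were CGGAAG, and those for forkhead factors were TGTTTAC. The box that binds the TATA-binding protein was searched for as TATAAA.
Slc22a8 (chr19:8593032-8593181, plus strand): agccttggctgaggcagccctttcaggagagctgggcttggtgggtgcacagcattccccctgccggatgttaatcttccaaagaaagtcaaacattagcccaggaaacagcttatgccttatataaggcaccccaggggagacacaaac
Mfsd2a (chr4:122961189-122961338, minus strand): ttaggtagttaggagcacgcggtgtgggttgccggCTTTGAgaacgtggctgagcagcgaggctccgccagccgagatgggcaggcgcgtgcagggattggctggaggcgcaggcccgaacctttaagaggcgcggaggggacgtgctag
Lrp8 (chr4:107802735-107802884, plus strand): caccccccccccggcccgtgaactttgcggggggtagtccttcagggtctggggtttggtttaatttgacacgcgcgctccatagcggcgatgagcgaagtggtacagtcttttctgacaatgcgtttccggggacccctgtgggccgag
These stretches differ in base composition. Over the full windows of 300 bases, from 250 before the start to 50 after it, that of Slc22a8 held 1 CG dinucleotide, while those of Mfsd2a and Lrp8 held 22 and 21, beside a median of 7 over 32851 windows of the same length. Only the Mfsd2a stretch holds a match, CTTTGA at position -115 from the start. RefSeq windows were at hand for 9 of the 10 transporters, 13 windows in all. The TCF/LEF letters were in 2 of the 13 (16.0% of all windows), the SOX letters in 5 (18.7%), the ETS letters in 0 (16.9%), the forkhead letters in 1 (3.65%) and the TATA letters in 4 (13.6%). The RefSeq start of Abcb1a lies outside the gene span given above. Such matches describe letters and not bound sites.

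Within the brain library the transporters differed in how far they were confined to ECs. The gate held 89.4% of the Abcb1a UMIs of all 4151 kept brain cells and 87.1% of those of Slco1a4. It held between 59.6% and 69.8% of the UMIs of Abcg2, Slc16a1, Slc7a5, Slc2a1 and Slc22a8, 47.2% of Slco1c1, 32.8% of Mfsd2a and 7.32% of Lrp8. Most classes below carry the name of the marker list that led them, with the members left out of the clustering, and the endothelial-like cells that the gate missed are given apart. As a rough allowance for endothelial RNA in other cells, the UMIs of a class were divided by those that its 10 endothelial reference genes would bring at the gate's proportions. This quotient is 1 for the gate itself. It counts all reference UMIs of a class as endothelial RNA, so it runs too low where a class holds such UMIs of its own.

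**Figure D2:**
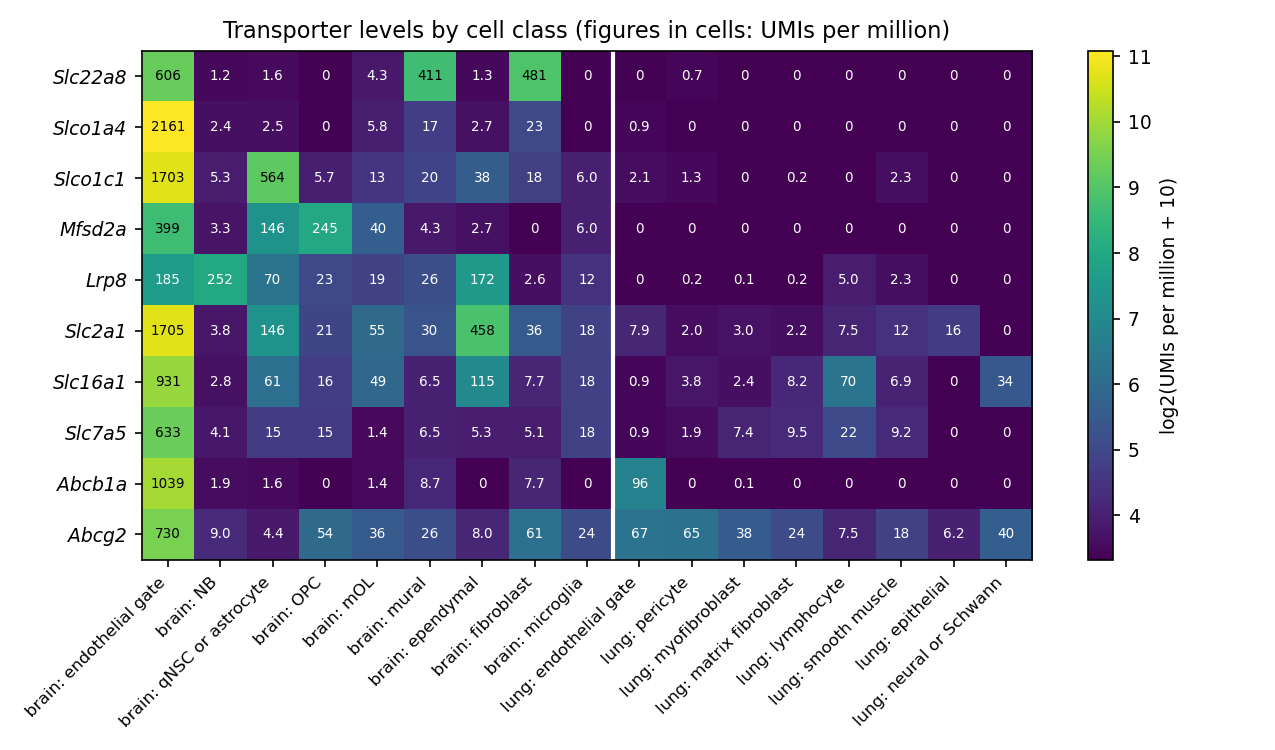
Level of each transporter (rows) in the endothelial gate and the named classes of each library (columns, brain left of the white line), coloured by log2(CPM + 10) with the CPM printed in each field. The brain endothelial column is high for all 10 genes. Outside it the brightest fields are Slco1c1 in qNSC or astrocyte-like cells (564), Slc22a8 in fibroblast-like (481) and mural-like cells (411) and Slc2a1 in ependymal-like cells (458).

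Slc22a8 was shared with the fibroblast-like and mural-like cells of brain. Its level was 606 CPM in the gate, 481 CPM (414 to 554) in 66 fibroblast-like cells and 411 CPM (354 to 474) in 166 mural-like cells, and at most 4.33 CPM in the other named classes that were not endothelial-like. The fibroblast-like and mural-like intervals overlapped each other, and the gate exceeded the former 1.26-fold (1.07 to 1.49) and the latter 1.47-fold (1.25 to 1.74). By the quotient the levels were 49.4 and 8.67 times what endothelial RNA would bring. The value for mural-like cells is too low, for the reason given with Slco1a4 and Abcb1a below. Among kept lung cells all 7 UMIs of Slc22a8 were in pericyte-like cells (0.671 CPM in 1997 cells).

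The remaining anion carriers parted ways outside ECs. Slco1c1 was at 564 CPM (538 to 590) in the 828 cells of the qNSC or astrocyte-like class, where quiescent neural stem cells (qNSCs) and astrocytes were not told apart. That was 190 times what endothelial RNA would bring, and the gate exceeded it 3.02-fold (2.83 to 3.22). Every other named brain class that was not endothelial-like was at 38.5 CPM or less. Among such classes Slco1a4 reached no more than 23.0 CPM, in fibroblast-like cells (quotient 0.663), and 17.4 CPM in mural-like cells (quotient 0.103). Abcb1a was there at most at 8.70 CPM (4 UMIs, mural-like, quotient 0.107), or 21.4 CPM with the gated cells of that class kept in. Of its 343 UMIs in kept lung cells 327 were in the gate and 12 in endothelial-like cluster cells that the gate missed. With both genes this far below 1, the reference UMIs of mural-like brain cells overstate the endothelial RNA there. Quotients of that class are therefore too low, and the source of its reference UMIs was not tested.

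Mfsd2a and Lrp8 were also found in neural cells. Mfsd2a was at 245 CPM (220 to 273) in 230 oligodendrocyte progenitor (OPC)-like cells, 146 CPM (133 to 159) in qNSC or astrocyte-like cells and 40.4 CPM (26.9 to 58.4) in mature oligodendrocyte (mOL)-like cells. In neuroblast (NB)-like cells it was at 3.27 CPM and in ependymal-like cells at 2.65 CPM. The gate exceeded the OPC-like class 1.63-fold (1.41 to 1.87). Here and below, this class joins cluster 13 (125 cells, led by Pdgfra, median 3299 UMIs) and cluster 14 (105 cells, led by Enpp6 and Gpr17, median 9456 UMIs). The deeper cells of cluster 14 weigh more in its CPM. In brain, Lrp8 was the one transporter whose highest named class was not endothelial. It was at 252 CPM (239 to 265) in 1363 NB-like cells, and the gate stood at 0.737 of that (0.635 to 0.852). Ependymal-like cells followed at 172 CPM (144 to 205), an interval that overlaps that of the gate. It was at 69.5 CPM (60.7 to 79.3) in qNSC or astrocyte-like cells and 22.9 CPM (15.7 to 32.3) in OPC-like cells. Unnamed cluster 15, led by Neurod1 and Eomes, had 270 CPM (224 to 323), and unnamed cluster 8, of shallow cells led by Grip1 and Dlx6os2, 382 CPM (287 to 497).

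Fuel carriers were next highest in cells that line the ventricles. Ependymal-like cells had 458 CPM (411 to 508) of Slc2a1 and 115 CPM (92.4 to 142) of Slc16a1, and the gate exceeded them 3.73-fold (3.32 to 4.19) and 8.07-fold (6.48 to 10.2). QNSC or astrocyte-like cells followed with 146 CPM and 61.4 CPM. MOL-like cells had 54.8 CPM (38.8 to 75.3) of Slc2a1 and 49.1 CPM (34.0 to 68.6) of Slc16a1. Slc7a5 was at or below 18.1 CPM in every named brain class that was not endothelial-like. It was higher in 2 unnamed clusters of dividing cells, at 78.8 CPM (66.2 to 93.2) in cluster 6, led by histone genes and Top2a, and 72.3 CPM (56.0 to 91.8) in cluster 11, led by Cdc20 and Cenpa. Abcg2 was at 61.4 CPM (39.3 to 91.3) in fibroblast-like cells, 53.7 CPM (42.2 to 67.3) in OPC-like cells and 36.1 CPM in mOL-like cells.

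In lung the transporters were not those of ECs alone. The lung gate held 15.1% of the Abcg2 UMIs of the kept cells, and 1997 pericyte-like cells had 65.3 CPM (60.5 to 70.4), so that the gate exceeded them 1.03-fold (0.885 to 1.20). Neural or Schwann-like cells had 39.7 CPM and myofibroblast-like cells 38.3 CPM of Abcg2. The lung gate held 95.3% of the Abcb1a UMIs. Slc16a1 was at 70.0 CPM (46.5 to 101) in 121 lymphocyte-like cells and 34.0 CPM (12.5 to 74.1) in 33 neural or Schwann-like cells, above the 0.883 CPM of the gate. Slc7a5 was at 22.5 CPM (10.3 to 42.7) in lymphocyte-like cells and 9.54 CPM (7.11 to 12.5) in matrix fibroblast-like cells. Slc2a1 was at 15.6 CPM (5.05 to 36.3, 5 UMIs) in epithelial-like cells and 7.95 CPM in the gate, and these intervals overlapped. This epithelial-like class was 35 cells led by Ccl21a, Krt17 and Cd74. Cluster 9 (192 cells), led by the surfactant genes Sftpc and Sftpa1, stayed unnamed and is not part of it.

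The 63 brain cells of the endothelial-like cluster that the gate missed carried the transporters at similar levels, although they were shallower (median 1495 UMIs). Slco1a4 was at 2345 CPM (2091 to 2621), Slc2a1 at 1671 CPM (1458 to 1907), Slc22a8 at 575 CPM (453 to 719) and Lrp8 at 250 CPM (172 to 350.5) there. Slc16a1 was lower, at 567 CPM (446 to 711) against 931 CPM in the gate.

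Single brain ECs carried most of the transporters together. The median gated brain cell had UMIs of 9 of the 10, with a range of 1 to 10, and 256 of 271 cells (94.5%) had 5 or more. The median gated lung cell had 1, with a range of 0 to 4, and 233 of 575 (40.5%) had none. With 1000 UMIs drawn from each cell, 5.34 ± 1.35 genes (SD over 269 cells of 1 library) were expected in brain and 0.176 ± 0.215 (575 cells) in lung. The same expectation was 0.738 in qNSC or astrocyte-like and 0.454 in mural-like brain cells. Summed over the 10 genes, the level was 10093 CPM (9910 to 10278) in brain ECs and 176 CPM (162 to 191) in lung ECs.

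**Figure D3:**
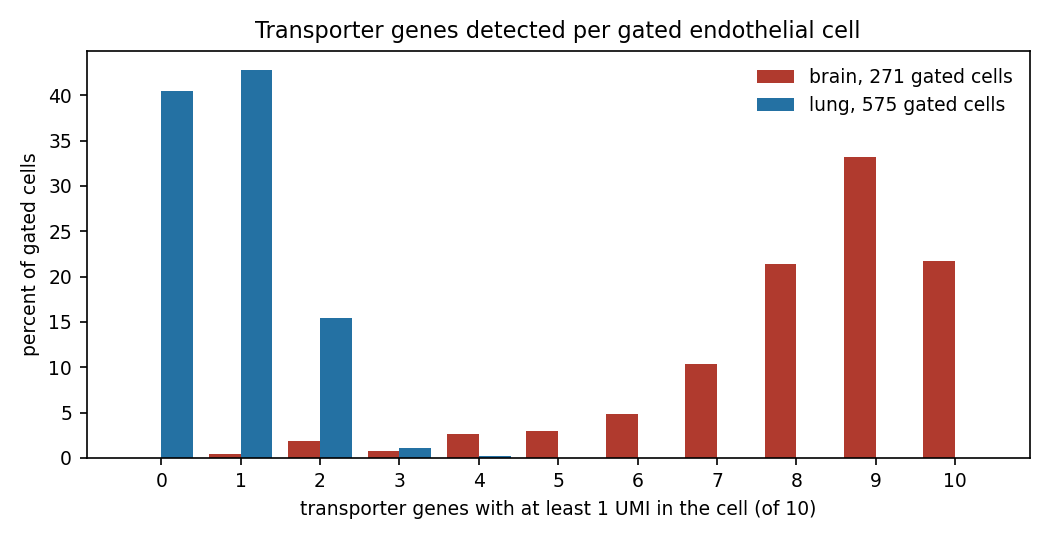
Percent of gated cells (vertical axis) by the number of transporter genes, of 10, with at least 1 UMI in the cell (horizontal axis), for 271 brain cells and 575 lung cells. The brain cells peak at 9 genes (33.2% of cells) and the lung cells at 1 gene (42.8%), and the distributions meet only between 1 and 4 genes.

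Brain ECs were then divided by genes of vessel type that are not transporters. Of the gated cells, 59 had more UMIs of arterial genes (Bmx, Sema3g, Efnb2, Gkn3 and others) than of venous genes, 117 had more of venous genes (Nr2f2, Vwf, Vcam1, Icam1, Selp and others), and 95 had equal numbers or none. These are ranges of a score and not vessel types, since many cells had few such UMIs. Slc16a1 had 75 UMIs (305 CPM, 240.2 to 383) in the arterial cells and 590 (1055 CPM, 971 to 1143) in the venous ones, a ratio of 0.289 (0.225 to 0.369). Slc7a5 was at 277 and 697 CPM, a ratio of 0.397 (0.302 to 0.515), and Slc22a8 at 338 and 717 CPM, a ratio of 0.471 (0.368 to 0.598). These 3 genes were thus lower in the arterial cells by the widest margins.

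Slc2a1 went the other way, with 2207 CPM (2025 to 2400.4) in the arterial and 1613 CPM (1509 to 1721) in the venous cells, a ratio of 1.37 (1.23 to 1.52). Slco1a4 at 0.771 (0.689 to 0.861), Abcg2 at 0.763 (0.628 to 0.921) and Abcb1a at 0.851 (0.725 to 0.995) were modestly lower in the arterial cells. The intervals of Slco1c1 (1.08, 0.963 to 1.21), Mfsd2a (1.16, 0.903 to 1.47) and Lrp8 (0.745, 0.490 to 1.11) included 1. The 95 cells of neither kind had levels like those of the venous cells, with intervals that included 1 for all 10 genes. These intervals treat UMIs as independent and leave out the spread between cells.

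**Figure D4:**
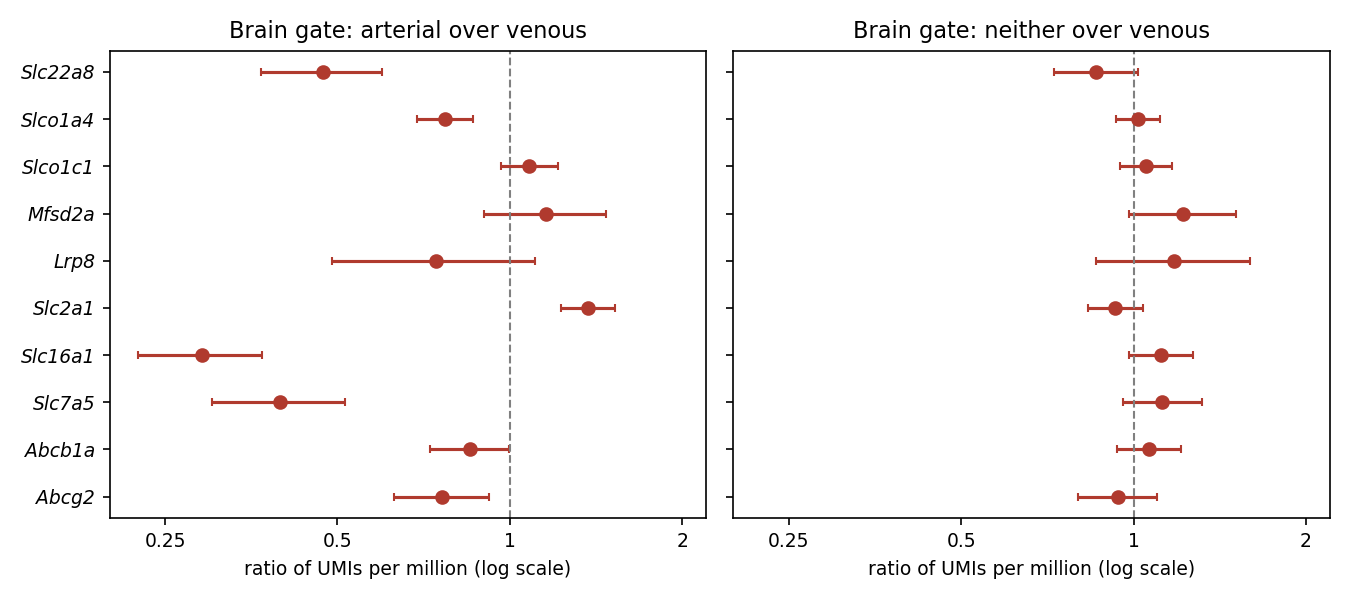
Ratio of CPM (log axis, bars are exact 95% counting intervals) for each transporter in the brain gate, for 59 cells with more arterial over 117 with more venous UMIs (left) and for 95 cells with neither over the venous ones (right). On the left Slc16a1, Slc7a5 and Slc22a8 lie lowest at 0.289, 0.397 and 0.471 and Slc2a1 alone lies above 1 with its whole interval, while on the right all 10 intervals cross the dashed line at 1.

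In lung only Abcb1a and Abcg2 had enough UMIs to compare. Of the gated lung cells 543 had more arterial UMIs, so they were divided instead by Ednrb and Apln, genes known from one kind of lung capillary cell. Here Ednrb was also among the 10 leading genes of the largest endothelial-like lung cluster (394 cells), beside Vwf, Gja5 and Hey1. The split is therefore one by these 2 genes and not by capillary type. Abcb1a was at 99.1 CPM in 335 cells with a UMI of either gene and 91.8 CPM in 240 cells with none, a ratio of 1.08 (0.858 to 1.36). Abcg2 was at 59.9 and 79.0 CPM, a ratio of 0.759 (0.580 to 0.993).

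The transporters were set beside 102 related genes in 7 lists, of which 95 had at least 10 UMIs over both gates. Of these, 37 (38.9%) passed the ratio of 4 toward brain, beside 5.53% of all genes tested, and 7 passed it toward lung, a share near the 6.71% of all genes. Their median log2 ratio was 0.74.

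**Figure D5:**
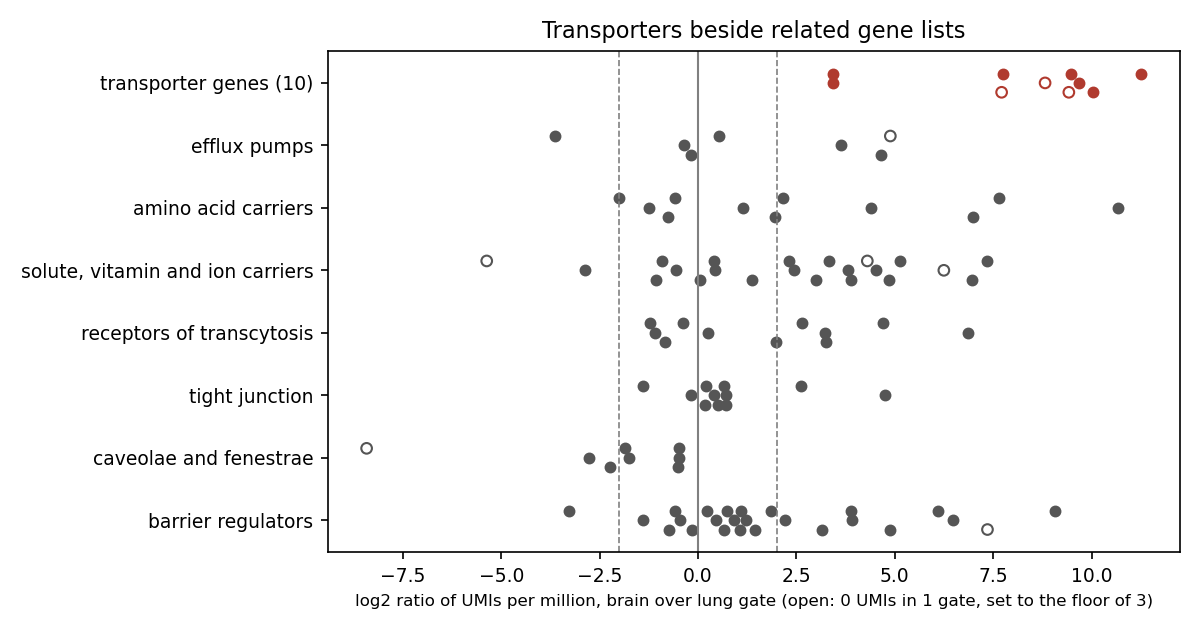
Log2 ratio of CPM, brain over lung gate, for the 10 transporters (red) and for the 95 related genes with at least 10 UMIs (grey), 1 row per list, with dashed lines at a ratio of 4 in either direction. Open circles had 0 UMIs in 1 gate and were set to the floor of 3. All 10 transporters lie right of the dashed line, and the caveolae and fenestrae list lies entirely left of 0.

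Of 7 other efflux pumps tested, 3 passed toward brain and 1 toward lung. Abcc6 was at least 29.6-fold higher in brain, Abcc4 (MRP4) had a ratio of 25.3 (15.9 to 42.5) and Abca2 of 12.4 (4.56 to 42.2). Abcc5 did not separate from 1 (0.888, 0.648 to 1.20), and Abcc1 (MRP1) was lower in brain at 0.0800 (0.00951 to 0.299), with 2 UMIs there and 74 in lung. The efflux list thus held pumps of both directions beside Abcb1a and Abcg2.

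Of 11 amino acid carriers 5 passed toward brain and none toward lung. Slc38a5 (a glutamine carrier) led with 551 brain UMIs and 1 lung UMI, a ratio of 1630 (291 to 64499), followed by Slc38a3 at 200.2 (67.5 to 979) and Slc1a1 at 126 (48.5 to 469). Slc3a2, the heavy chain that pairs with Slc7a5, was found in both gates at a ratio of 2.22 (2.04 to 2.42), far from the 717 of its partner. The lowest were Slc38a1 at 0.250 (0.0888 to 0.572), Slc1a5 at 0.423 (0.0807 to 1.42) and Slc7a6 at 0.592 (0.201 to 1.44).

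Of 22 carriers of other solutes, vitamins and ions, 13 passed toward brain and 2 toward lung. Slc40a1 (ferroportin, which exports iron) had a ratio of 163 (85.2 to 359) and Slc16a4 of 124 (56.3 to 342), and Slc19a3, a thiamine carrier, was at least 75.9-fold higher in brain. At the other end were Slco2a1, a prostaglandin carrier that was at least 41.4-fold higher in lung, Slco3a1 at 0.136 (0.0671 to 0.248) and Slc29a1, a nucleoside carrier, at 0.479 (0.345 to 0.654). The Slco family therefore had members high in brain (Slco1a4, Slco1c1) and in lung (Slco2a1, Slco3a1).

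Among 11 receptors linked to transcytosis 5 passed toward brain and none toward lung. Tfrc, the transferrin receptor, had a ratio of 116 (71.8 to 200.2), and Bsg, the chaperone of Slc16a1, had 23931 brain and 2733 lung UMIs, a ratio of 25.9 (24.9 to 27.0). Cd320, which takes up vitamin B12, was at 9.49 (7.32 to 12.4). The lowest were Lepr at 0.427 (0.225 to 0.751), Lrp1 at 0.472 (0.225 to 0.897) and Ptgfrn at 0.562 (0.431 to 0.725). Tfrc, like Slc7a5 and Slc16a1, was lower in the brain cells with more arterial UMIs, at 236 CPM (179 to 305), than in those with more venous UMIs, at 667 CPM (601 to 738), and Slc38a5 was at 69.2 and 731 CPM.

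The tight junction genes had a median log2 ratio of 0.51. Of 11 tested, 2 passed toward brain, namely Lsr (the tricellular junction protein angulin-1) at 27.0 (12.4 to 70.0) and Ocln (occludin) at 6.12 (5.17 to 7.26). Esam was at 1.64 (1.53 to 1.76) and Tjp1 at 1.14 (1.04 to 1.25), the interval of Mpdz included 1 (0.880, 0.589 to 1.29), and F11r was at 0.380 (0.272 to 0.520). The genes of caveolae and fenestrae had a median of -1.81. None of 8 passed toward brain and 3 passed toward lung. Plvap, the diaphragm protein of fenestrae and caveolae, had 0 brain and 3044 lung UMIs and was at least 343-fold higher in lung. Ehd4 was at 0.146 (0.114 to 0.183) and Ehd2 at 0.211 (0.171 to 0.257), and the least different were Ptrf at 0.717 (0.648 to 0.793), Pacsin2 at 0.710 (0.494 to 0.999) and Cav2 at 0.703 (0.611 to 0.806).

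Of 25 regulators of the barrier, 9 passed toward brain and 1 toward lung. The forkhead factor Foxq1 had a ratio of 541 (210.3 to 1990) and Lef1, a factor and target of Wnt signalling, of 89.3 (54.4 to 158). Ahr, the receptor of dioxin-like ligands, was at 0.104 (0.0678 to 0.152). Fzd4 was at 0.379 (0.259 to 0.541) and Sox17 at 0.602 (0.546 to 0.662).

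The 5 genes outside these lists whose level followed the mean of the transporters most closely over 17 classes of both libraries, by Pearson's r of log2(CPM + 10) among genes with at least 50 CPM in some class, were Spock2 (0.935), Far2 (0.928), Degs2 (0.915), Gm694 (0.911) and Sgpp2 (0.898). The classes share libraries and depth, so these values are a description. Of the transporters themselves, each set against the mean of the others, Slco1a4 (0.926) and Slco1c1 (0.875) lay closest and Lrp8 (0.564) farthest. Spock2 was at 2855 CPM in the brain gate, 21.2 CPM in the lung gate and at most 65.1 CPM in another of these classes, which leave out the endothelial-like cells that the gate missed.

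Genes of other cells in the gates were counted beside these results. In the brain gate the mural list summed to 970 CPM (39526 CPM in mural-like cells) with 8 of 10 genes found and Acta2 and Tagln at 0. The NB list summed to 559 CPM, the mOL list to 347 CPM with Ermn and Opalin at 0, and the qNSC or astrocyte list to 225 CPM. In the lung gate the pericyte list summed to 548 CPM (19822 CPM in its own class), in 282 cells, with 10 of 10 genes found. The matrix fibroblast list summed to 531 CPM in 353 cells (42983 CPM in its own class), with Fgfr4 and Inmt at 0, and the smooth muscle list to 338 CPM in 190 cells, with all 8 genes found. The neural or Schwann list summed to 498 CPM in 288 cells, nearly all of it Scn7a, with Sox10, Erbb3 and Cdh19 at 0. The fibroblast list fixed for brain summed to 1245 CPM in 501 of the 575 lung cells, led by Col3a1 and Col1a1, with Slc6a13 at 0. The NB list fixed for brain summed to 1880 CPM in 504 cells, nearly all of it Stmn2, with Dcx, Dlx1 and Dlx2 among its genes at 0. Haemoglobin genes summed to 12248 CPM in brain, in 21 cells, and 2281 CPM in lung, in 114 cells. The part of these cells and of free RNA in the levels was not tested. With the 5 brain and 13 lung gated cells outside the endothelial-like clusters left out, all 10 transporters still passed the ratio of 4.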

How the data were processed

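Nes-GFP+ cells of brain and lung were profiled in 1 droplet library each. The authors processed reads with UMI-tools, aligned them with STAR 2.7.1a to mm10 and assigned them with featureCounts 1.6.4; the deposited values are raw UMI counts per gene and barcode. The annotation version and the strand setting were not given in the sources used here. The brain table held 4640 barcodes and 26221173 UMIs, and the lung one 5981 barcodes and 36816962 UMIs. With the thresholds of the study's methods, barcodes with over 200 and under 4000 genes and under 40% mitochondrial counts were kept, 4151 in brain and 5608 in lung. The study's figure shows 4640 brain and 5981 lung cells, as many as the barcodes in the tables, so the cell sets differ. Doublets were kept, and Scrublet (scanpy 1.11.5) called 44 brain and 74 lung cells, whose removal was an alternative.

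Counts were summed per class and expressed as CPM. Intervals were exact Poisson (CPM), conditional binomial (ratios) and Clopper-Pearson (shares), with scipy 1.17.1. No p-value is given, since a group of 1 library has no replicates. Shares at 1000 UMIs are hypergeometric expectations, and the interval and ratio code was tested on simulated data. Classes came from Seurat 5.3.0 in R 4.3.3 (2000 variable genes without cell cycle, transporter and related genes, 20 components, resolution 0.8) and marker lists, and unnamed clusters go by number. All transporters are named, and of each related list the 3 highest and 3 lowest ratios, except for genes that are not reported here; Slc3a2 was named after its value was seen. The members, lists and naming thresholds were chosen with earlier results of these data known.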

Additional observations from a re-analysis of the deposited data

Results flagged for a closer look

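Slc16a1 differed in direction between the tissues when gated ECs were set against mural-like cells of brain and pericyte-like cells of lung. The lung class includes a cluster of 222 cells led by the cell cycle genes Ccnb2 and Cenpa. In brain the gate had 1069 UMIs (931 CPM) and mural-like cells 3 (6.52 CPM), a ratio of 143 (48.7 to 693). In lung the gate had 3 UMIs (0.883 CPM) and pericyte-like cells 40 (3.83 CPM), a ratio of 0.230 (0.0456 to 0.723). With 1 library per tissue this difference was not tested, and the lung levels rest on few UMIs. Among the 10 transporters it was the only one whose 2 intervals lay on opposite sides of 1.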

How the results depend on the processing

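The number of transporters past the ratio of 4 was 10 under all 13 alternatives, which changed the gate, the cell filter, doublet removal, the scaling, the ratio (2 or 10) and the UMI minimum (3 or 30). The background moved with thresholds alone: 1561 genes passed toward brain and 1719 toward lung at a ratio of 2, and 322 and 274 at a ratio of 10. With a minimum of 30 UMIs, 367 passed toward brain. The other gene counts stayed within 1.5 times. All 90 recomputed ratios of single transporters lay within the main interval (for a lower bound, above its lower end), and so did the 40 recomputed levels in the highest other class, at a coarser clustering or with gated cells kept in. Of these levels, 3 on few UMIs still moved by over 1.5 times: Abcb1a in mural-like brain cells (8.70 to 21.4 CPM) and in lung myofibroblast-like cells (0.133 to 0.264 CPM) with gated cells kept in, and Slco1c1 in lung smooth muscle-like cells (2.31 to 1.26 CPM) at the coarser clustering. Of 40 shares of cells with a UMI, 26 moved beyond their interval without thinning or at 2000 UMIs, since depth sets them. One UMI in the lung gate is 0.294 CPM, and ratios on 1 to 7 lung UMIs have wide intervals. No paired analysis was possible because each tissue had 1 library, with no p-value to pair.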
